A study of Mus musculus with 6 samples.

Results

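Imprinted genes in lung endothelial cells (EC) are described here through their differentially methylated regions (DMRs), stretches of CpGs whose methylation differed between infant and young adult mice. A DMR was taken as a member when its midpoint lay within 20 kb of the RefSeq gene body of any of 41 imprinted genes, grouped here into 17 imprinted domains. This rule found 48 of the 18333 listed DMRs, and 11 of the 48 served more than 1 of the genes because the 20 kb windows of neighbouring imprinted genes overlap. The rule used position only, so direction and level of methylation had no part in which DMRs near these genes were taken. The genes themselves were chosen with earlier results of these data known.

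The study sorted EC from the lungs of C57BL/6N mice, as cells negative for PTPRC, LYVE1, LY76, PDPN and the dead-cell dye PI and positive for CD31 and CD34, and asked how the DNA methylome changes while the vessels become quiescent. T-WGBS, a bisulfite sequencing of the whole genome after tagmentation that reads methylated cytosines from small amounts of DNA, was run on 3 samples per group. Infant mice were aged 8 to 10 days and young adult mice 8 to 12 weeks, all described as female, and the labels name no transgene and no treatment. The table analysed here gives a mean per group and no value per sample, so the replicate spread behind a difference and the coverage of a region are unknown, and no test of a difference is given. All regions were selected by the study's own test on these 6 samples, and a gene with no DMR is a gene with no listed region, which can also mean too little coverage. The sort markers could not be checked, since the table holds no expression.

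Imprinted genes are expressed mainly from the maternal or the paternal chromosome. Each cluster is controlled by a germline mark, a CpG-rich region whose methylation is laid down in the egg or the sperm, is kept on that parental chromosome through the divisions of the embryo, and is protected there by ZFP57 and TRIM28. In a somatic cell such a region has a methylated and an unmethylated allele, so its mean methylation lies near 50%. The mice were of an inbred strain and the reads carry no parental origin here, so a mean of 50% cannot tell apart cells with 1 methylated allele each from a mixture of fully methylated and unmethylated cells.

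Methylation was higher in young adult EC in 40 of the 48 DMRs and lower in 8. The gain share was 83.3%, against 54.1% of all 18333 DMRs, and the share of losses was 16.7% against 45.9%. The gains were found at 14 of the 17 domains, that is at every domain that held a DMR. Of these, 7 domains held gains only and 7 held both directions, and Mcts2-H13 was the 1 domain in which losses outnumbered gains. No test of these shares was made, because the regions are neighbours on the chromosome and were all selected in the same comparison.

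The sequences below show the regions the account turns on. They comprise 5 regions taken by CpG count, with ties in order of coordinate, from the largest difference of each domain, the regions within 1 kb of a gene start and the 3 largest gains and losses, of at most 300 bases and outside untranslated exons. They also comprise 2 CpG-rich regions of Kcnq1 and Kcnq1ot1 that were chosen after their values were seen. Other regions are described without letters. All are read from GRCm38 (mm10) on the plus strand, 5′ to 3′, and the capitals mark the CpGs of the DMR, the sites whose methylation was averaged.
Nnat promoter, within a Blcap intron, chr2:157559451-157559603: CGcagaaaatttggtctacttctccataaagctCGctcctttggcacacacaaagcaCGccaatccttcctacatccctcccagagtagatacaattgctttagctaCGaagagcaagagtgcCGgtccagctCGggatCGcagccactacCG
Gnas internal promoter, chr2:174327527-174327627: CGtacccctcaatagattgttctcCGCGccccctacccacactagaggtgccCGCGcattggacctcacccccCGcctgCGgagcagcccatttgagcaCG
Kcnq1ot1, with 60 bases on either side, chr7:143295038-143295183: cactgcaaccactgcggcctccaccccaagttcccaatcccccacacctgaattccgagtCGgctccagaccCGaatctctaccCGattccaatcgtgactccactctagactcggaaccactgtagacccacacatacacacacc
Kcnq1 intron 15, with 60 bases on either side, chr7:143389240-143389390: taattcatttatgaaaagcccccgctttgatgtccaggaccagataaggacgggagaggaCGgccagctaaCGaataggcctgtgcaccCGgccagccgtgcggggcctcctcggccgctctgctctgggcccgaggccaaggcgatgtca
Upstream of Mest, chr6:30720679-30720805: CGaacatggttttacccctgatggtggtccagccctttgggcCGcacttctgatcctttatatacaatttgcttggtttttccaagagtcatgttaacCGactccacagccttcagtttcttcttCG
Trappc9 intron 15, chr15:72915190-72915352: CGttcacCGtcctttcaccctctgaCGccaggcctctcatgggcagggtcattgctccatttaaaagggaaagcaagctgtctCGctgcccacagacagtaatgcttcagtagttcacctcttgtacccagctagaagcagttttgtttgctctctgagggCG
Commd1 intron 1, chr11:22959050-22959240: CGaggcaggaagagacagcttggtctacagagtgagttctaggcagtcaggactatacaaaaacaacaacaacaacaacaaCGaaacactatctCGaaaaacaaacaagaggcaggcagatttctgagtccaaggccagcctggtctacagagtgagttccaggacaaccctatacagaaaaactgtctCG

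In the Nnat and Gnas regions 8 CpGs each stood within 153 and 101 bases, while the regions of Mest and Commd1 held 4 CpGs in 127 and 191 bases. The first 4 sequences are from regions that gained methylation and lie in CpG-rich sequence. The Mest region gained methylation in sequence that did not reach the CpG-rich limits given below. The regions of Trappc9 and Commd1 lost it. The Commd1 region is 100% masked as a repeat in the reference, so the reads at this loss came from repeat sequence. Of the 48 DMRs, 3 (6.25%) were masked over most of their length, against 8.21% of all DMRs. The other two of these were a loss in exon 13 of H13, at 93.8%, and a gain in Kcnq1 intron 15, at 58.8%.

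**Figure D1:**
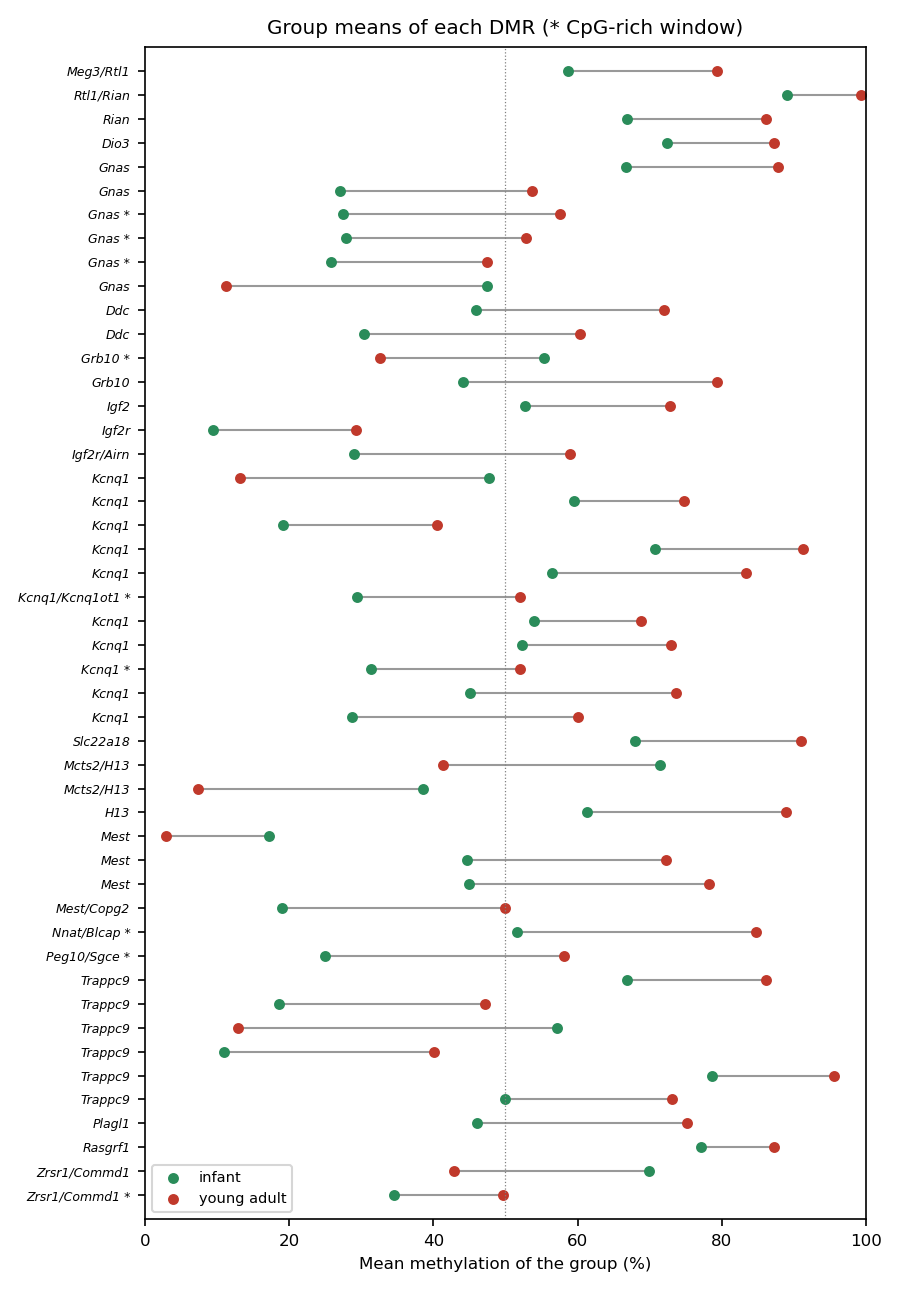
Mean methylation (%) of the 3 infant samples (green) and the 3 young adult samples (red) in each of the 48 DMRs, one line per DMR, ordered by imprinted domain and position, with the line joining both means and a star for a CpG-rich window; no error bars can be drawn from group means. The red point lies to the right of the green one in 40 lines and to the left in 8, and the Dlk1-Dio3 lines (Meg3/Rtl1 to Dio3) start at 58.7% or higher.

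DMRs within 2 kb of a germline-marked promoter start all gained methylation. All but the Nnat region had a low infant mean and a young adult mean near 50%. Of the 41 genes, 14 are known to carry a maternal germline mark at a promoter, and 4 of these, Peg10, Zrsr1, Gnas and Nnat, had a DMR within 1 kb of a curated start, with 5 DMRs in all. These 4 genes are 28.6% of the 14, against 2.64% of all genes with a curated transcript. The 14 were picked for a mark at the promoter, so all genes are not a matched background. Within 2 kb Kcnq1ot1 joined them, where 5.46% of all genes had a DMR, and the count rose to 7 DMRs. All 7 gained methylation and lay in CpG-rich windows, defined as 200 bp around the midpoint in which G and C make up 50% or more of the bases and observed CpGs exceed 0.6 times the expected number. Gains made up 77.3% of all DMRs in such windows. Of the 7 regions, 3 were neighbours in Gnas. The shared direction depends on the 2 kb limit. Grb10, another of the 14 genes, had a CpG-rich region 2390 bp from a start that lost methylation (55.3% to 32.6%).

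Peg10, a retrotransposon-derived gene expressed from the paternal allele and needed in the placenta, shares its promoter region with Sgce, which encodes a sarcoglycan. Its DMR lay 56 bp downstream of the Peg10 start, in the first exon (chr6:4747355-4747373, 4 CpGs). The infant mean was 25.0% and the young adult mean was 58.1%, a difference of 33.1 points. The infant value was the lowest among the 7 regions at marked promoters.

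Gnas encodes the stimulatory G protein alpha subunit and related transcripts from several promoters, some maternal, some paternal and some biallelic. The region printed above lay 174 bp upstream of an internal Gnas start and rose from 27.5% to 57.5%. A second DMR, 756 bp downstream of an internal start (chr2:174328506-174328545, 6 CpGs), rose from 27.9% to 52.8%. The last, 1081 bp upstream of a coding start (chr2:174328916-174328937, 5 CpGs), rose from 25.8% to 47.5%. The 3 regions lay 878 and 370 bp apart, each held 5 or more CpGs, and all had nearly the same infant and young adult levels. They are neighbours in the same CpG-rich stretch and are not independent of each other.

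Kcnq1ot1 is a long noncoding RNA that starts within an intron of the potassium channel gene Kcnq1, is transcribed from the paternal allele and silences neighbouring genes. Its DMR lay 1438 bp downstream of the start, in intron 11 of Kcnq1 (3 CpGs), and rose from 29.4% to 52.0%. Zrsr1, a splicing-factor retrogene within an intron of Commd1, had its DMR 358 bp downstream of the start (chr11:22972355-22972374, 3 CpGs), where methylation rose from 34.5% to 49.6%. This difference of 15.1 points was the smallest of the 7.

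Nnat, which encodes the membrane proteolipid neuronatin, stood apart from the other marked promoters. Its DMR, 552 bp upstream of the start, rose from 51.6% to 84.7% over 8 CpGs. Here the infant mean was near 50% and the young adult mean was far above it. In the other 6 regions, infant means were between 25.0% and 34.5% and young adult means between 47.5% and 58.1%. Thus the 7 regions at marked promoters fell into 6 with an adult level near 50% and 1 with an infant level near 50%.

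**Figure D2:**
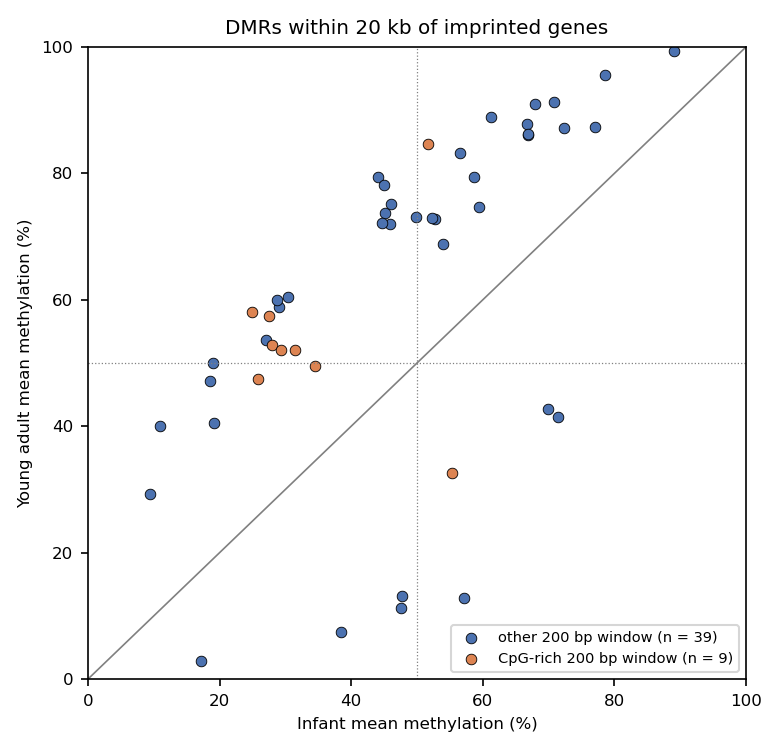
Young adult mean methylation (%) plotted against infant mean methylation (%) for the 48 DMRs, 9 in CpG-rich 200 bp windows (orange) and 39 in other windows (blue); the solid line marks equal means and the dotted lines 50%. Of the orange points, 7 lie between 25.0% and 34.5% on the infant axis and between 47.5% and 58.1% on the adult axis, and Nnat (51.6%, 84.7%) and Grb10 (55.3%, 32.6%) lie apart.

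For the other marked promoters no DMR was listed within 2 kb. The nearest one was 2390 bp downstream of a Grb10 start, 3226 bp upstream of a Mest start, 19193 bp from Mcts2, 26600 bp from Plagl1, 34562 bp upstream of Airn and 51611 bp upstream of Peg13. For Impact, Peg3 and Snrpn it was 93813, 150945 and 1047505 bp away. The paternal germline marks lie upstream of H19, Meg3 and Rasgrf1, and no DMR was listed in the 5 kb, 20 kb and 40 kb searched upstream of each. Whether these regions had the coverage to be tested is not known from the table. Distances were taken from curated starts, and the bounds of the marks were not used. A region beyond 2 kb, such as the CpG-rich Grb10 loss, may therefore lie in a mark.

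Closeness to 50% was looked at directly, since it is the level of a stable imprint. A DMR whose means are both within 15 points of 50% was found in 0 of the 48 regions, against 3.63% of all DMRs. At 20 points the share was 12.5%, against 13.1% of all DMRs. The nearest regions were Zrsr1, whose farther mean was 15.5 points from 50%, and the Grb10 loss, at 17.4 points. The list requires a difference of at least 10 points, so a region that stayed at 50% in both groups could not be listed.

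A pattern chosen after the values were seen was an infant mean under 35% with a young adult mean within 10 points of 50%. It was found in 13 of the 48 DMRs (27.1%), against 7.94% of all DMRs. Among gains it was 32.5% against 14.7%. The 13 regions were the 6 described at the promoters of Peg10, Gnas, Kcnq1ot1 and Zrsr1, a CpG-rich region of Kcnq1 intron 15, and 6 in windows that did not reach the CpG-rich limits. These last lay in Gnas intron 2 (27.0% to 53.7%), in Airn upstream of Igf2r (29.0% to 58.9%) and in Kcnq1 intron 2 (19.2% to 40.5%). The others lay 3226 bp upstream of Mest (19% to 50%) and in Trappc9 (18.6% to 47.1% and 11.0% to 40.1%).

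CpG-rich windows held 9 of the 48 DMRs (18.8%), against 4.09% of all DMRs. The CpG-rich regions were the 7 at marked promoters, the Kcnq1 intron 15 region (31.4% to 52.0%) and a Grb10 region that lost methylation (55.3% to 32.6%). The 8 CpG-rich gains had a median infant mean of 28.7% and a median young adult mean of 52.4%. The 509 autosomal CpG-rich gains away from the imprinted genes had similar medians, 29.6% and 59.6%, but a wide range of young adult means, from 11.9% to 99.4%. The infant-low, adult-near-50% pattern was present in 7 of the 8 CpG-rich gains near imprinted genes (87.5%) and in 24.2% of those 509. On the X chromosome, which carries an inactive copy in each female cell, it was present in 21 of 62 CpG-rich gains (33.9%). The limits of the pattern were set after these regions were seen, so the 87.5% and its contrast with the other shares are description only. Of the 8 gains, 3 were the neighbouring Gnas regions, which are not independent. Away from CpG-rich windows the 32 gains near imprinted genes had medians of 51.1% and 74.2%, against 56.4% and 78.9% for all such gains, and 18.8% of them had the pattern against 14.0%.

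**Figure D3:**
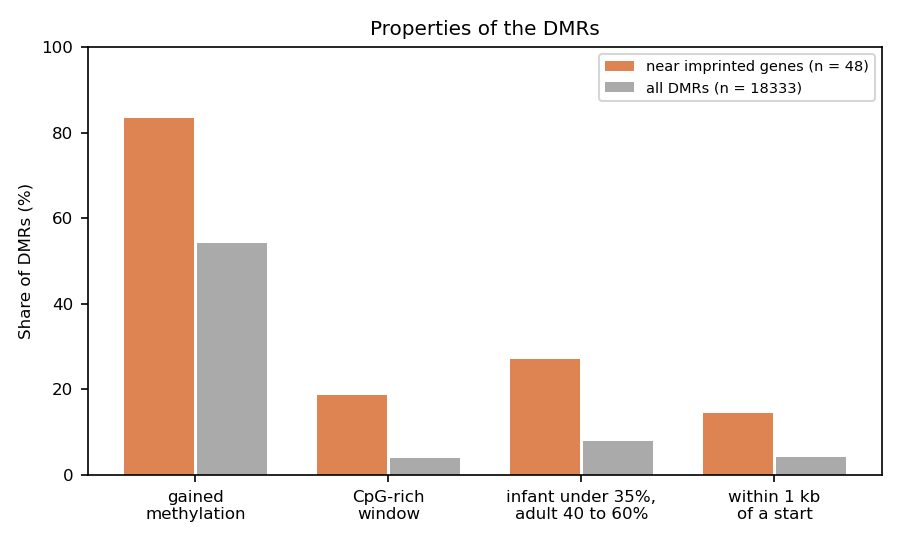
Share (%) of the 48 DMRs near imprinted genes (orange) and of all 18333 DMRs (grey) that gained methylation, lay in a CpG-rich 200 bp window, had an infant mean under 35% with a young adult mean of 40% to 60%, or lay within 1 kb of any curated start. The orange bars stand at 83.3%, 18.8%, 27.1% and 14.6% and the grey bars at 54.1%, 4.09%, 7.94% and 4.18%. The bars are shares with no test, and the limits of 35% and of 40% to 60% were chosen after the values were seen.

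The Kcnq1 domain held the most DMRs, 12 of the 48. Of these, 11 lay within 20 kb of Kcnq1, whose body spans 320 kb, and 10 of the 11 gained methylation. The other gains of the gene, beside the CpG-rich ones and the 1 in intron 2 given above, ranged widely. In intron 1 a region rose from 59.5% to 74.7%, in intron 2 another rose from 70.8% to 91.3%, and in intron 6 a region rose from 56.5% to 83.3%. In intron 15, beyond the start of Kcnq1ot1, methylation rose from 53.9% to 68.8%, from 52.3% to 73.0% and from 45.1% to 73.7%, and 1.72 kb past the end of the gene it rose from 28.7% to 60%. The 1 loss, in intron 1 (chr7:143122406-143122508, 4 CpGs), fell from 47.7% to 13.2%. It lay 15202 bp downstream of the Kcnq1 start, and gains lay on both sides of the Kcnq1ot1 start.

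Slc22a18, an organic cation transporter-like gene that is expressed from the maternal allele, held a DMR 599 bp upstream of an internal start (chr7:143474509-143474550, 3 CpGs). Methylation there rose from 68.0% to 91.0%. Phlda2, a maternally expressed gene that limits placental growth, had no listed DMR.

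**Figure D4:**
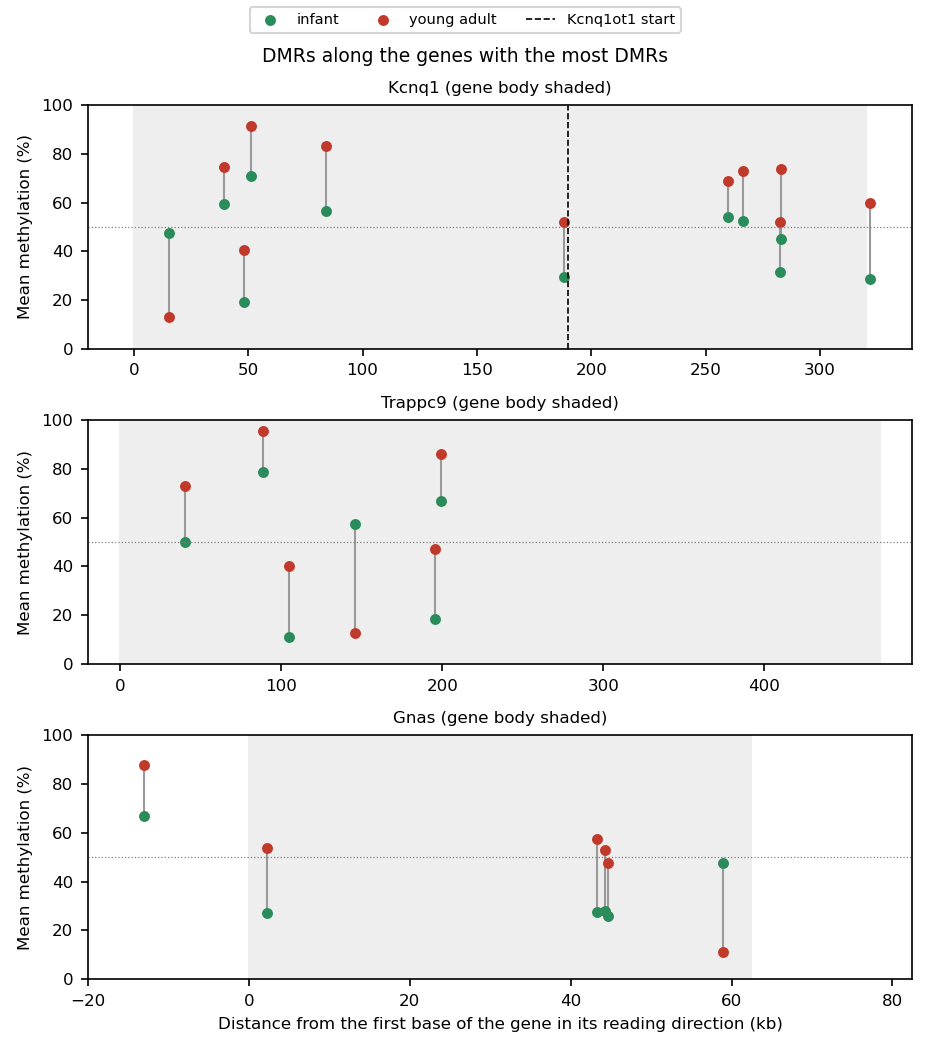
Mean methylation (%) of infant (green) and young adult (red) EC in the DMRs within 20 kb of Kcnq1, Trappc9 and Gnas, against distance (kb) from the first base of each gene in its reading direction, with the gene body shaded and the Kcnq1ot1 start dashed. Kcnq1 holds 10 gains and 1 loss, Trappc9 5 gains and 1 loss, and Gnas 5 gains and 1 loss, with 3 Gnas gains close together at internal starts.

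Gnas and Trappc9 each held 6 DMRs, 5 gains and 1 loss. Beside the 3 promoter regions and the intron 2 region, Gnas had a gain 13026 bp upstream of its first start, from 66.7% to 87.8%. The Gnas loss lay in exon 7 of a Gnas transcript (chr2:174343245-174343261, 3 CpGs) and fell from 47.5% to 11.3%, a difference of -36.2 points. Trappc9, which encodes a subunit of a vesicle-tethering complex, hosts the paternally expressed Peg13 RNA within an intron and spans 472 kb. Its intron 15 region printed above fell from 57.2% to 12.9%. This difference of -44.2 points was the largest of the 48 in either direction. The other Trappc9 regions rose, from 66.9% to 86.2% in intron 16, from 78.6% to 95.6% in intron 8 and from 49.9% to 73.1% in intron 6, beside the 2 with an adult mean near 50%. Neither Peg13 nor Kcnk9, a potassium channel gene of the same domain, had a DMR within 20 kb.

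Of the genes that act on growth, Igf2, a paternally expressed growth factor, had 1 region, 3.80 kb past the end of the gene and 10526 bp downstream of its nearest curated start (chr7:142646935-142647008, 4 CpGs), where methylation rose from 52.7% to 72.8%. H19, the maternally expressed noncoding RNA of the same domain, had none. Igf2r, the maternally expressed receptor that removes IGF2, had a low region in intron 22 that rose from 9.49% to 29.3%, and the region shared with Airn that was given above lay 11562 bp upstream of its start (chr17:12781213-12781325). Plagl1, a paternally expressed zinc finger gene that restrains proliferation, rose from 46.1% to 75.2% in intron 6 (chr10:13117338-13117528). Grb10, an adaptor that dampens insulin and IGF signalling, held the largest gain of the 48, from 44.1% to 79.4% in intron 1 (chr11:12034635-12034849), a difference of 35.3 points, and the CpG-rich loss 2390 bp downstream of another start (chr11:12025578-12025587, 3 CpGs). The 2 Grb10 regions thus moved in opposite directions within the same intron. Its neighbour Ddc, which encodes DOPA decarboxylase, gained methylation in exon 12 (45.9% to 72%) and, 96 bp away, in intron 11 (30.4% to 60.4%).

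In the Dlk1-Dio3 domain, which carries maternally expressed noncoding RNAs and paternally expressed coding genes, all 4 DMRs gained methylation and all began high. The Meg3 region in intron 9 (chr12:109570808-109570976) rose from 58.7% to 79.4%, and the Rian region in intron 15 rose from 66.8% to 86.1%. The region within Rtl1, 486 bp upstream of the microRNA gene Mir127, rose from 89.0% to 99.3%, and the region 16461 bp upstream of Dio3, a thyroid hormone deiodinase gene, rose from 72.4% to 87.2%. The median infant and young adult means of the 4 were 69.6% and 86.7%. Dlk1, a paternally expressed ligand-like membrane protein gene, and Mirg had no listed DMR.

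Mest, a paternally expressed hydrolase-like gene, had 4 DMRs, all upstream of the gene. The printed region and its neighbour 132 bp away rose from 45.0% to 78.2% and from 44.7% to 72.2%. The region farthest upstream, 16668 bp from the start, lost methylation from a low level, from 17.2% to 2.94%. At Mcts2-H13, where the retrogene Mcts2 lies within H13, a signal peptide peptidase gene, 2 losses lay 38 bp apart in exon 13 of H13. The first fell from 71.4% to 41.4% and the second (chr2:152706389-152706434, 5 CpGs) from 38.5% to 7.39%. Another region, 9.73 kb past the end of H13, rose from 61.3% to 88.9%. The printed Commd1 region, 12862 bp upstream of Zrsr1, fell from 69.9% to 42.8%. Rasgrf1, a paternally expressed exchange factor gene, held the smallest gain, from 77.1% to 87.3% in intron 26 (chr9:90026449-90026733).

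There were 6 pairs of DMRs at most 2 kb apart, in Ddc, H13, Gnas, Mest and Kcnq1, and in all 6 the direction was shared. Over the whole list this held for 96.5% of 3492 such pairs, so the count is near the background. The members of a pair come from the same cells and libraries and are not independent measurements.

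Of the 41 genes, 26 (63.4%) had a DMR within 20 kb, against 34.0% of 26089 genes with a curated transcript. A gain was found at 25 genes (61.0%), against 24.5%, and a loss at 9 (22%), against 15.4%. The genes without a DMR were H19, Phlda2, Peg3, Usp29, Zim1, Dlk1, Mirg, Snrpn, Ube3a, Ndn, Magel2, Peg12, Impact, Peg13 and Kcnk9. They include all genes of the Peg3, Snrpn-Ube3a and Impact domains, which comprise zinc finger, splicing-related and neuronal genes. The imprinted genes were longer than the others, with a median of 38.3 kb against 14.4 kb, and a longer body offers more CpGs. Per 10000 CpGs of the windows the difference was smaller, 12.3 DMRs against 10.5 in the windows of all curated genes. Gains were at 10.2 against 5.04 per 10000 CpGs and losses at 2.04 against 5.46.

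The 48 DMRs held 3.69 CpGs on average, against 3.73 over the whole list, and 32 of them (66.7%) held 3 CpGs, against 66.5%. Their median span was shorter, 79.5 bp against 126 bp. Introns held 26 (54.2% against 58.1% of all DMRs), exons 8 (16.7% against 6.75%), promoters 5 (10.4% against 2.11%) and intergenic sequence 9 (18.8% against 31.7%). The median gain was 23.1 points, between 10.2 and 35.3 points, against 20.4 points for all gains. The median difference of the 8 losses was -30.6 points, against -32.5 points for all losses, and their median level went from 51.5% to 13.1%. The letters TGCCGC, the core of the ZFP57 motif, were found on either strand in the 200 bp windows of 3 of the 48 DMRs (6.25%), against 4.06% of all DMR windows of that length. The windows were those of the second Gnas promoter region and of Trappc9 introns 16 and 8. Among CpG-rich windows alone the letters were in 1 of 9 (11.1%), against 18.6% of all CpG-rich DMRs.

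The gene bodies set the membership, and the values near the 20 kb limit were as follows. Just inside lay the Mest region 16.7 kb from the gene (17.2% to 2.94%) and the Dio3 region at 16.5 kb. Just outside lay regions 21.8 kb from Mest (56.9% to 84.9%) and 25.0 kb from Kcnq1 (58.1% to 86.6%).

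A further list of 51 genes reported as imprinted elsewhere, of which 50 were found in the annotation, was counted in the same way. Of these, 28 (56%) had a DMR, against 34.0% of all curated genes, and 60 DMRs not counted above lay near them. In this list 39 DMRs gained and 21 lost methylation, a gain share of 65.0% against 54.1% of all DMRs. In CpG-rich windows lay 3 of the 60 (5%, against 4.09%), and 6 (10%, against 7.94%) had the infant-low, adult-near-50% pattern. Ampd3, an AMP deaminase gene, held 12 DMRs, 10 of them losses, and Pde4d, a phosphodiesterase gene, held 4 losses among 5. Tssc4 and the tetraspanin gene Cd81, adjacent genes of the Kcnq1 cluster, shared 7 gains. Ppp1r9a, a neighbour of Peg10, held 6 gains, and Phactr2, a neighbour of Plagl1, held 2 gains and 2 losses. Pon2, another neighbour of Peg10, held 1 gain and 2 losses. Of 19 genes taken as keeping imprints, such as Zfp57, Trim28, Uhrf1 and Dnmt1, 6 (31.6%) had a DMR, near the 34.0% of all curated genes. Among their 14 DMRs, 8 (57.1%, against 54.1%) gained and 6 lost methylation. Hdac1 held 5 gains and Arid4a 3 losses.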

How the data were processed

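T-WGBS libraries of 3 infant and 3 young adult samples were aligned by the authors with BWA 0.6.1 to mm10, and DMRs were called with bsseq in R 3.2.2 on unsmoothed data. CpGs needed a coverage of 8 in at least 2 of 3 samples per group, and DMRs needed at least 3 consecutive CpGs, each at 0.05 in the study's test, and a difference of 10 points. The deposited methylation values are fractions, averaged by the authors over the CpGs and the samples of a group. The last column names the nearest promoter and was not used. Fractions were converted to percent and the infant mean was subtracted from the young adult mean. The first and last CpG of all 18333 DMRs matched GRCm38. Genes, starts and introns were taken from RefSeq curated transcripts, a promoter being 1 kb upstream to 100 bp downstream of a start. The assignment was tested on simulated regions. Python 3.11.15, pandas 2.3.3 and pysam 0.24.0 were used.

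The regions described individually were the largest difference of each domain, all within 1 kb of a gene start and the 3 largest gains and losses; others were added after their values were seen. The genes, lists and comparisons were chosen with earlier results of these data known. Samples were grouped by their labels. Depth per region is not given in the table, and reads, RNA-seq and values per sample were not analysed here.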

Additional observations from a re-analysis of the deposited data

How the results depend on the processing

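No paired analysis was possible because the table holds group means only, and leaving out a replicate was not run for the same reason. Of 88 values under other settings, 82 stayed close to those given, 6 moved and 0 reversed. Part of this count could not move, since no member lay on a sex chromosome and the setting with autosomes only changed nothing. Any overlap in place of the midpoint, and the longest curated transcript, also left the count at 48 DMRs. At a minimum of 5 CpGs, 9 DMRs near 7 imprinted genes were left, 3 of them at marked promoters, with a loss share of 33.3% (74.6% of all DMRs of that size) and 44.4% in CpG-rich windows (6.41% of all DMRs of that size). With 20 points in place of 15, both means were near 50% in 12.5%, against 13.1% of all DMRs. The loss share stayed between 14.0% and 33.3% over the settings. At a minimum difference of 20 points it was 18.9%, against 60.1% of all such DMRs. Without the Gnas domain, 21.4% of the DMRs had the infant-low, adult-near-50% pattern and 14.3% were CpG-rich. With wider limits (infant under 40%, adult within 15 points) the pattern was found in 31.2%, against 12.1% of all DMRs. The unknown coverage of each region limits every value.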
